A study of Mus musculus with 4 samples.

Results

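Expression of 7 genes was followed that are read as marks of arginine use and of alternative activation in macrophages: Arg1, Nos2, Retnla, Chil3, Ear2, Slc7a2 and Ido1. They are the 7 rows with these symbols among the 31053 mouse features of the count matrices. They were picked out by name, with earlier results of these data known. The tumours grew from the HER2+ mouse mammary tumour line H605. Cells of this line were injected into the mammary pad of FVB/NJ hosts aged 6 to 8 weeks, and tumours were taken on day 14. Of the hosts, 2 were WT and 2 were Il1a-/-, so all 4 tumours carry the same transplanted line and only the host lacks the gene for interleukin 1α. Each host gave 1 tumour library (replicates 1 and 2 of each genotype), made with the 10x Genomics 3′ chemistry from digested tissue enriched for live cells. The labels give no replicate beyond these tumours, so p-values measure the spread between 2 tumours a genotype.

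Macrophages can spend arginine in competing ways. Arginase 1 (Arg1) splits it into ornithine and urea, and ornithine feeds polyamine and proline synthesis. The inducible nitric oxide synthase (Nos2) turns the same amino acid into nitric oxide and citrulline. Slc7a2 encodes a cationic amino acid transporter that brings arginine into the cell. Retnla encodes the secreted resistin-like molecule alpha, and Chil3 a chitinase-like protein that binds sugars without cutting chitin. Both are classic targets of interleukin 4 and interleukin 13 signalling through STAT6 in mouse macrophages. Ear2 encodes a secreted ribonuclease of the eosinophil-associated family, and Ido1 an enzyme that degrades tryptophan.

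In GENCODE vM21 (GRCm38, mm10, 1-based) all of them are protein-coding. Arg1 lies at chr10:24915221-24927484 on the minus strand and Nos2 at chr11:78920787-78960254 on the plus strand. Retnla lies at chr16:48842551-48844461 (plus), Chil3 at chr3:106147554-106167564 (minus) and Ear2 at chr14:44102654-44103534 (plus). Slc7a2 lies at chr8:40862396-40922308 (plus) and Ido1 at chr8:24584136-24597009 (minus). The RefSeq promoter table (GRCm38.p6) matched 3 of the 7 symbols. Only those 3 promoters could be shown. No link between their letters and the levels of the genes was tested. Each line runs 5′ to 3′ on the gene's own strand, with motif matches in capitals.
Retnla: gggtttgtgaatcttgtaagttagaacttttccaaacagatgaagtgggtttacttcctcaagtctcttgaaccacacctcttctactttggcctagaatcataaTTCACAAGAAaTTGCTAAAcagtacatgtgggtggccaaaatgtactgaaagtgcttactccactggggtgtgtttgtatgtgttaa
Chil3: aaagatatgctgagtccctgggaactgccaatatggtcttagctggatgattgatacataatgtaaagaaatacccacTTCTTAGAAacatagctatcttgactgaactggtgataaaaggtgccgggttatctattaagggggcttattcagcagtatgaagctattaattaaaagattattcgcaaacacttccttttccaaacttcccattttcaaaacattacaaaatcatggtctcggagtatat
Ear2: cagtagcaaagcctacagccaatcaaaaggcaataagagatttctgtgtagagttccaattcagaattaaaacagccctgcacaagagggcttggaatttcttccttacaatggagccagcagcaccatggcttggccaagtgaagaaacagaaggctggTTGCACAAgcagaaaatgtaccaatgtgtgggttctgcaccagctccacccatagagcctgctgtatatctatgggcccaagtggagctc
The Retnla stretch is chr16:48842359-48842550, 192 bases that stop where the GENCODE gene begins, 58 bases before the RefSeq start. The Chil3 stretch is chr3:106167565-106167814 and the Ear2 stretch chr14:44102404-44102653, each the 250 bases before the RefSeq start. The full 250 bases were searched on both strands for TTCNNNNGAA (a STAT6-type spacing), TTCNNNGAA (a general STAT spacing) and TTGCNNAA (a C/EBP type). Retnla held TTCACAAGAA starting at -145 and TTGCTAAA at -134, Chil3 held TTCTTAGAA at -172, and Ear2 held TTGCACAA at -90, counting the base before the start as -1. These matches do not overlap one another. Of 32526 promoters of the same length, 5.89% hold the STAT6-type letters, 7.04% the general STAT letters and 9.57% the C/EBP letters. A match is a description of the letters and not a binding site.

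The libraries held 23464120 and 29001333 UMIs (unique molecular identifiers, each 1 captured transcript) in the WT tumours and 6705368 and 15298532 in the Il1a-/- tumours. Both Il1a-/- libraries were shallower than both WT libraries, and Il1a-/- replicate 1 was the shallowest. After filters and doublet removal 3873, 3878, 3130 and 3246 cells remained, in the order WT replicates 1 and 2 and Il1a-/- replicates 1 and 2, which holds for every series of 4 values in this section. Any 2 libraries shared 0 to 6 cell barcodes. Il1a, the deleted gene, gave 62, 82, 0 and 0 UMIs in phagocyte-like cells, so it matched the labels. The labels say that tumours were collected as 2 pairs on separate days but not which tumours form a pair, so no value within a collection day can be given.

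Mononuclear phagocyte-like cells are 3 clusters named from 13 markers such as Lyz2, Csf1r and Adgre1, all of which were detected. They numbered 404, 733, 169 and 422 cells, 1728 in all. Clusters and gates were built without the 7 genes. Of the 7, 6 were found mainly there. The class held 95.1% of all Arg1 UMIs in cells, 97.1% of Retnla, 98.2% of Chil3, 97.2% of Ear2, 88.0% of Slc7a2 and 80.7% of Nos2. Ido1 gave 5 UMIs in all cells and 0 of them in phagocyte-like cells. A floor of 3 counts, used here for 0 Ido1 UMIs, would be 1.56, 0.803, 8.60 and 1.71 CPM (the counts-per-million scale, the UMIs of a gene over all UMIs of the cell type in 1 tumour), counting error only.

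Arg1, the arginase, stood at 229, 1224, 837 and 3119.6 CPM in phagocyte-like cells. The groups overlapped, since WT replicate 2 was above Il1a-/- replicate 1. Means were 726 ± 703 CPM in WT and 1978 ± 1614 in Il1a-/- tumours (SD, n = 2 each; edgeR log2 difference 1.504, SE 0.79, adjusted p = 0.440). Within a genotype the spread was as wide as that difference: replicate 2 was 5.34 times replicate 1 in WT and 3.73 times in Il1a-/-.

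Slc7a2, the arginine transporter, was at 81.5, 249.7, 283.8 and 845.8 CPM. Both Il1a-/- tumours were above both WT tumours, although WT replicate 2 and Il1a-/- replicate 1 were close. The log2 difference was 1.84 (SE 0.62, edgeR adjusted p = 0.245). Nos2, the nitric oxide synthase, was at 0, 9.64, 80.3 and 166 CPM, from 0, 36, 28 and 292 UMIs. Its groups did not overlap, and it came closest to the threshold of 0.05 (log2 difference 4.52, SE 0.75, edgeR adjusted p = 0.0590). One cell gave 57.1% of the Nos2 UMIs of Il1a-/- replicate 1, and the fitted difference rests in part on a WT library with no UMI.

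Retnla, the resistin-like molecule, was at 7377, 8281, 3443 and 8899.6 CPM, with Il1a-/- replicate 1 below the other 3 tumours. Its log2 difference was -0.28 (SE 0.44, edgeR adjusted p = 0.803). Chil3, the chitinase-like protein, was at 265, 1352, 751 and 7805 CPM. Il1a-/- replicate 2 stood far above the rest, and the other Il1a-/- tumour lay between the WT tumours (log2 difference 2.48, SE 1.04, edgeR adjusted p = 0.342). Ear2, the ribonuclease, was at 470.1, 330.3, 200.7 and 274 CPM, both Il1a-/- tumours below both WT tumours (log2 difference -0.69, SE 0.27, edgeR adjusted p = 0.317).

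Without a replicate block, none of the 6 genes that passed the filter on low counts was called at an adjusted p under 0.05. Of all 8961 genes tested, 0.201% were called (18 genes, edgeR). Nos2, Slc7a2, Ear2 and Chil3 had an unadjusted p under 0.05, as did 13.9% of all genes (1247). DESeq2 called none of the 6 either (adjusted p from 0.516 for Ear2 to 0.998 for Arg1 and Retnla), against 2.1% of the 5286 genes to which it gave an adjusted p. Nos2 and Slc7a2, 2 of the 6, were higher in both Il1a-/- tumours than in both WT tumours, an order that 20.3% of all genes showed, and Ear2 was lower in both, as were 27.2% of all genes. Without Il1a-/- replicate 1, the shallowest library, 4 passed: Arg1 (log2 difference 2.19, edgeR adjusted p = 0.0408), Nos2 (4.91, adjusted p = 1.51e-04), Chil3 (3.36, adjusted p = 0.00291) and Slc7a2 (2.44, adjusted p = 0.00454). In that setting 4.03% of 9435 genes were called. Leaving out Il1a-/- replicate 2 instead gave 0.12 for Arg1 (edgeR adjusted p = 0.963), 3.70 for Nos2 (0.0934), -0.19 for Chil3 (0.933) and 0.69 for Slc7a2 (0.608). With no filter on low counts the same 4 genes passed, in a setting where 3.8% of 14676 genes did. Their counts were the same as in the filtered fit, which called none of them. A replicate block also called these 4 (edgeR adjusted p from 0.00236 to 0.00766), where 2.24% of 8961 genes were called. The labels do not say whether the replicate numbers pair the tumours.

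The make-up of the class moved with genotype. C1q-high cells were 56.2% and 56.9% of phagocyte-like cells in WT tumours and 26.6% and 29.6% in Il1a-/- tumours. The 13 T/NK markers summed to 66.9 and 95.8 CPM in the WT phagocytes and to 301 and 194 CPM in the Il1a-/- phagocytes, with none of them at 0. The 5 eosinophil markers summed to 2.94 to 3.63 CPM in WT and 1.71 to 5.73 CPM in Il1a-/- tumours, with Epx, Prg2 and Il5ra at 0. The 8 neutrophil markers summed to 92.9 to 117 and 67.8 to 80.3 CPM, with none at 0. The 7 fibroblast markers summed to 59.1 and 61.8 CPM in WT and to 8.60 and 31.3 CPM in Il1a-/- phagocytes, with none at 0 over the 4 tumours. The 8 tumour epithelial markers summed to 18.2 CPM in both WT tumours and to 0 and 1.14 CPM in the Il1a-/- tumours, with Krt19 and Erbb2 at 0. T/NK, fibroblast, tumour epithelial and neutrophil markers thus separated the genotypes. The part of these cells in the differences above was not tested. Fewer cells of a type and less RNA per cell cannot be told apart in sums over the whole class, so the gated types are given as well.

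**Figure D1:**
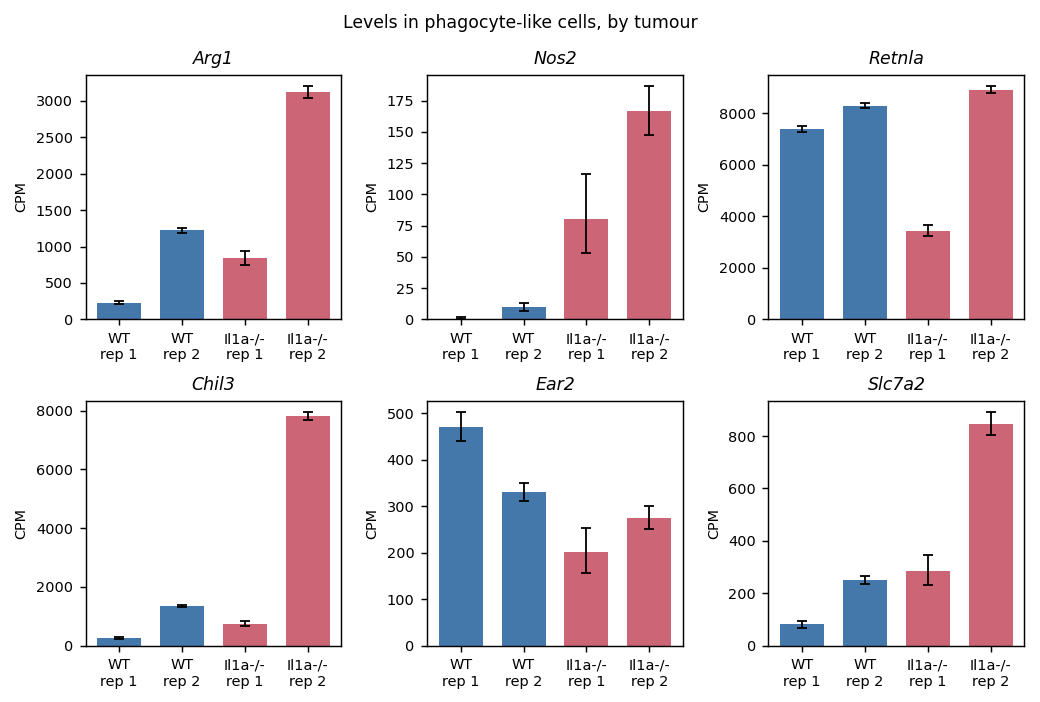
Bars show the CPM of 6 genes in phagocyte-like cells of each tumour (blue WT, red Il1a-/-), with exact Poisson 95% intervals that cover counting error only; each panel has its own axis from 0. For every gene plotted other than Ear2 the second replicate is above the first in both genotypes; Nos2 runs from 0 in WT replicate 1 to 166 CPM in Il1a-/- replicate 2.

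Shares of cells were compared as well. Each cell was thinned to 1000 UMIs so that depth could not set the share, which left 349, 576, 129 and 366 cells. Arg1 was then found in 11.5%, 36.5%, 13.2% and 47.8% of phagocyte-like cells (22.0%, 46.5%, 18.9% and 55.0% without thinning). In T/NK-like cells, which should lack it, the thinned share was 0.37%, 0.495%, 0.0607% and 0.73%; their median depth was 2911 to 4144.5 UMIs in WT and 1241.5 to 2732 in Il1a-/-, against 3719 to 3937 and 1691 to 3391 in the phagocytes. Slc7a2 was found in 5.73%, 14.4%, 12.4% and 34.4% of thinned phagocytes, and in at most 0.0991% of T/NK-like cells. Nos2 was found in 0%, 1.04%, 3.88% and 8.20% (0 of 349 cells in WT replicate 1, exact upper limit 1.05% of cells with a UMI, which does not limit the share of cells expressing it), against at most 0.0607% in T/NK-like cells. Arg1 and Slc7a2 were above the lymphocyte share in all 4 tumours, and Nos2 in 3.

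Retnla was found in 39.8%, 50.5%, 16.3% and 36.3% of thinned phagocytes, and in 1.96%, 5.50%, 1.03% and 3.12% of T/NK-like cells. Retnla RNA was also abundant outside cells, at 1349 to 6681 CPM among barcodes of at most 100 UMIs. Chil3 was found in 12.0%, 22.0%, 8.53% and 39.9% of phagocytes, against 0.106% to 2.53% of T/NK-like cells. Ear2 was found in 20.3%, 20.3%, 17.1% and 14.8%, against at most 0.347%.

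**Figure D2:**
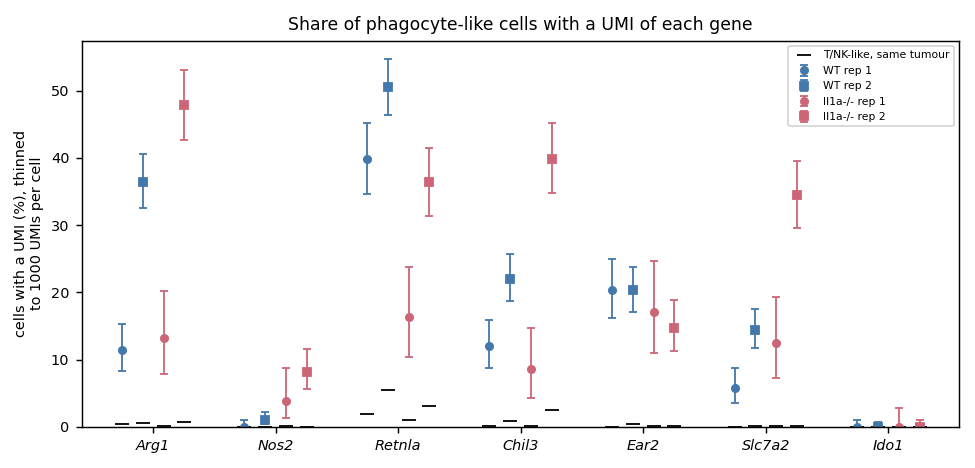
Points give the share of phagocyte-like cells with at least 1 UMI after thinning each cell to 1000 UMIs, with exact Clopper-Pearson 95% intervals, by tumour; black dashes give T/NK-like cells of the same tumour. Arg1 lies between 11.5% and 47.8% while its T/NK-like dashes stay under 1%, and Ido1 is at 0 in every tumour.

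The transcripts were concentrated in few cells. The top 10% of phagocyte-like cells held 84.2%, 72.4%, 91.8% and 53.2% of the Arg1 UMIs, so Arg1 was spread most widely in Il1a-/- replicate 2. For Chil3 the same cut held 91.0%, 92.4%, 98.9% and 86.5%, and for Retnla 75.7%, 70.4%, 98.0% and 81.5%. A single cell of WT replicate 2 held 1313 Retnla UMIs, and a single cell of Il1a-/- replicate 2 held 1222 Chil3 UMIs.

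Some of the genes were seen in the same cells more often than others. Among thinned cells with Slc7a2, 40.0%, 67.5%, 43.8% and 79.4% also had Arg1, against 9.73%, 31.2%, 8.85% and 31.3% of cells without Slc7a2. In all 4 tumours the arginase was thus more frequent where the arginine transporter was seen. In Il1a-/- replicate 2, the tumour with most Nos2, 25 of the 30 Nos2 cells had Slc7a2 and 22 had Arg1, so the synthase and the arginase were captured in the same cells there. Among cells with Ear2, 77.5%, 76.9%, 36.4% and 61.1% had Retnla, against 30.2%, 43.8%, 12.2% and 32.1% of cells without it. For Ear2 and Arg1 the shares ran the other way in 3 of 4 tumours: 12.7%, 30.8%, 0% and 22.2% of Ear2 cells had Arg1, against 11.2%, 37.9%, 15.9% and 52.2% of the others. These shares describe cells of 1 tumour each and carry no test.

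Phagocyte-like cells were then gated by markers. C1q-high cells had at least 10 UMIs of C1qa, C1qb and C1qc per 10000. Those with at least 2 UMIs of Folr2, Cd163, Lyve1, Timd4 and Cbr2 were called resident-type macrophage-like (52, 60, 3 and 22 cells), and the rest C1q macrophage-like without resident markers (175, 357, 42 and 103). C1q-low cells with at least 2 UMIs of a list of monocyte markers that includes Ly6c2, Ccr2, Plac8, Vcan, F13a1 and Hp were called classical monocyte-like (147, 251, 95 and 209). The remaining C1q-low cells, poor in monocyte markers, numbered 30, 65, 29 and 88 and stayed unnamed. The gates are ranges and not sharp types: 108 of 1728 cells lay between 5 and 20 C1q UMIs per 10000. The resident and monocyte limits are fixed UMI numbers and so move with depth. The gates were therefore also drawn after thinning each cell to 1000 UMIs, which leaves out shallower cells and keeps 27, 17, 2 and 3 resident-type and 109, 162, 65 and 123 monocyte-like cells, and with stricter limits.

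Retnla had its highest values in resident-type cells, at 14069.7, 20139.96, 21342.8 and 26012.2 CPM, although Il1a-/- replicate 1 has only 3 such cells. C1q cells without resident markers followed at 6938, 9795, 4498 and 19883 CPM. With gates drawn after thinning that order turned in both WT tumours: resident-type cells had 7226 and 11000 CPM there, against 8239 and 11326 in C1q cells without resident markers. With the gates as first drawn, classical monocyte-like cells had 5219, 3183, 1839 and 2772 CPM, and the unnamed C1q-low cells had 5379, 4709.8, 3940.4 and 2846 CPM. The last 2 types overlap in range, and C1q cells without resident markers overlap both of them and the resident-type range. In classical monocyte-like cells both Il1a-/- tumours were below both WT tumours for Retnla (log2 difference -0.79, SE 0.32, edgeR adjusted p = 0.397), an order that 25.2% of all genes showed there. With gates drawn after thinning the groups overlapped (2000 and 1062 CPM in WT, 1399 and 1503 in Il1a-/-) and the difference was -0.038 (edgeR adjusted p = 0.980).

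Arg1 ranked the types in another way. Resident-type cells had 269, 1861, 4612 and 3589.9 CPM, C1q cells without resident markers 228, 1211, 530.1 and 2229, classical monocyte-like cells 173, 963, 959 and 3377, and the unnamed C1q-low cells 677, 2124, 126 and 3342. The 4 types span overlapping ranges. With the gates as first drawn both WT tumours had the same order, with the unnamed cells highest and the monocyte-like cells lowest. Drawn after thinning, WT replicate 2 had 2156 CPM in resident-type cells and 1863 in the unnamed cells. As first drawn, the unnamed cells of the WT tumours were shallow, with medians of 894.5 and 930 UMIs. They held resident-type markers at 2360 CPM in WT replicate 1 and 22.4 in WT replicate 2. With the gates as first drawn resident-type cells were above C1q cells without resident markers and above monocyte-like cells in all 4 tumours. Il1a-/- replicate 1 has only 3 resident-type cells, and there the order did not hold with other gates. Its stricter gate left 1 resident-type cell, with 0 Arg1 UMIs. Gates drawn after thinning gave it 561 CPM, from 3 UMIs, against 719 in monocyte-like cells. The order of all 4 types was not the same in the Il1a-/- tumours, where Il1a-/- replicate 1 had its lowest value in the unnamed cells. The difference between hosts was 2.02 on the log2 scale in classical monocyte-like cells (SE 0.70, edgeR adjusted p = 0.312) and 0.96 in C1q cells without resident markers (SE 0.82, adjusted p = 0.671). In the unnamed C1q-low cells it was 0.47 (SE 1.20, edgeR adjusted p = 0.946), and leaving out Il1a-/- replicate 2 turned it to -3.60 (adjusted p = 0.00109), on 4 Arg1 UMIs in the other Il1a-/- tumour.

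Chil3 reached its highest value, 22531 CPM, in the unnamed C1q-low cells of Il1a-/- replicate 2, where the other 3 tumours had 1579, 738 and 284 CPM. In classical monocyte-like cells it was at 143, 529.8, 1116 and 5778 CPM, with both Il1a-/- tumours above both WT tumours (log2 difference 3.44, SE 0.74, edgeR adjusted p = 0.103). In C1q cells without resident markers it was at 161, 1643, 145 and 5296 CPM, and in resident-type cells at 612, 3089.7, 2467 and 3276. No order of the types held in all 4 tumours. A single cell gave 45.0% of the Chil3 UMIs of Il1a-/- replicate 1 in phagocyte-like cells (118 of 262).

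Nos2 was highest in C1q cells without resident markers, at 0, 18.9, 214 and 325 CPM, against 0, 0.703, 10.5 and 71.6 in classical monocyte-like cells. In the C1q cells its groups did not overlap (log2 difference 4.60, SE 0.78, edgeR adjusted p = 0.113). Resident-type cells had 0, 4.66, 0 and 205 CPM and the unnamed C1q-low cells 0, 0, 31.5 and 234. Slc7a2 was at 46.7, 306, 522 and 826 CPM in C1q cells without resident markers and at 12.5, 90.6, 94.3 and 627 in classical monocyte-like cells, with no overlap of the genotypes in either type (log2 differences 1.90, SE 0.72, and 2.88, SE 0.78; edgeR adjusted p = 0.356 and 0.177). Resident-type cells had Slc7a2 at 294, 592, 1287 and 1165 CPM, the value of Il1a-/- replicate 1 from 3 cells. The unnamed C1q-low cells had it at 364, 112, 252 and 1506 CPM, where the genotypes overlapped. Ear2 ranged from 103 to 433 CPM in C1q cells without resident markers and from 322 to 574 in resident-type cells. It ranged from 202 to 511 CPM in classical monocyte-like cells and from 104 to 149 in the unnamed C1q-low cells.

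None of the genes tested was called between hosts in a gated type by edgeR without a replicate block. All 6 were tested in C1q cells without resident markers, 5 in classical monocyte-like and in the unnamed C1q-low cells (all but Nos2) and none in resident-type cells, which were too few. In C1q cells without resident markers 0% of 6586 genes were called (813 or 12.3% at an unadjusted p under 0.05), in classical monocyte-like cells 0.0889% of 6747 (698 or 10.3% unadjusted) and in the unnamed C1q-low cells 0% of 1466 (91 or 6.21% unadjusted). Unadjusted p under 0.05 were seen for Nos2 and Slc7a2 in the first type, for Arg1, Retnla, Chil3 and Slc7a2 in the second and for 0 of the 5 genes tested in the third. Both Il1a-/- tumours lay above both WT tumours for 22.8% of all genes in C1q cells without resident markers, Nos2 and Slc7a2 among them. In classical monocyte-like cells 17% of all genes tested did so, Slc7a2 and Chil3 among them. Slc7a2 was close there, at 90.6 CPM in WT replicate 2 and 94.3 in Il1a-/- replicate 1. Nos2 had the same order in that type but did not pass the filter, so it is outside that share. Its WT values there rest on 1 UMI. With the stricter gate Slc7a2 and Chil3 overlapped in classical monocyte-like cells: Slc7a2 was at 14.9 and 88.9 CPM in WT and 48.4 and 475 in Il1a-/-, and Chil3 at 165 and 612 in WT and 550.3 and 4654 in Il1a-/-. With gates drawn after thinning both kept the order and passed, where 0.388% of 5412 genes were called. The edgeR values were 2.45 for Chil3 (adjusted p = 0.00475) and 2.75 for Slc7a2 (adjusted p = 0.0379). In Il1a-/- replicate 1 that gate held 133 Chil3 UMIs, and the C1q-high and unnamed gates 37 and 78. A single cell of that tumour held 118 Chil3 UMIs, so its monocyte-like value rests mainly on 1 cell. Whether the Chil3 order holds without that cell was not tested. DESeq2 was not run on the gated types. A replicate block called Nos2 and Slc7a2 in C1q cells without resident markers, where 2.46% of all genes were called. It called Arg1, Chil3 and Slc7a2 in classical monocyte-like cells, where 3.2% were.

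**Figure D3:**
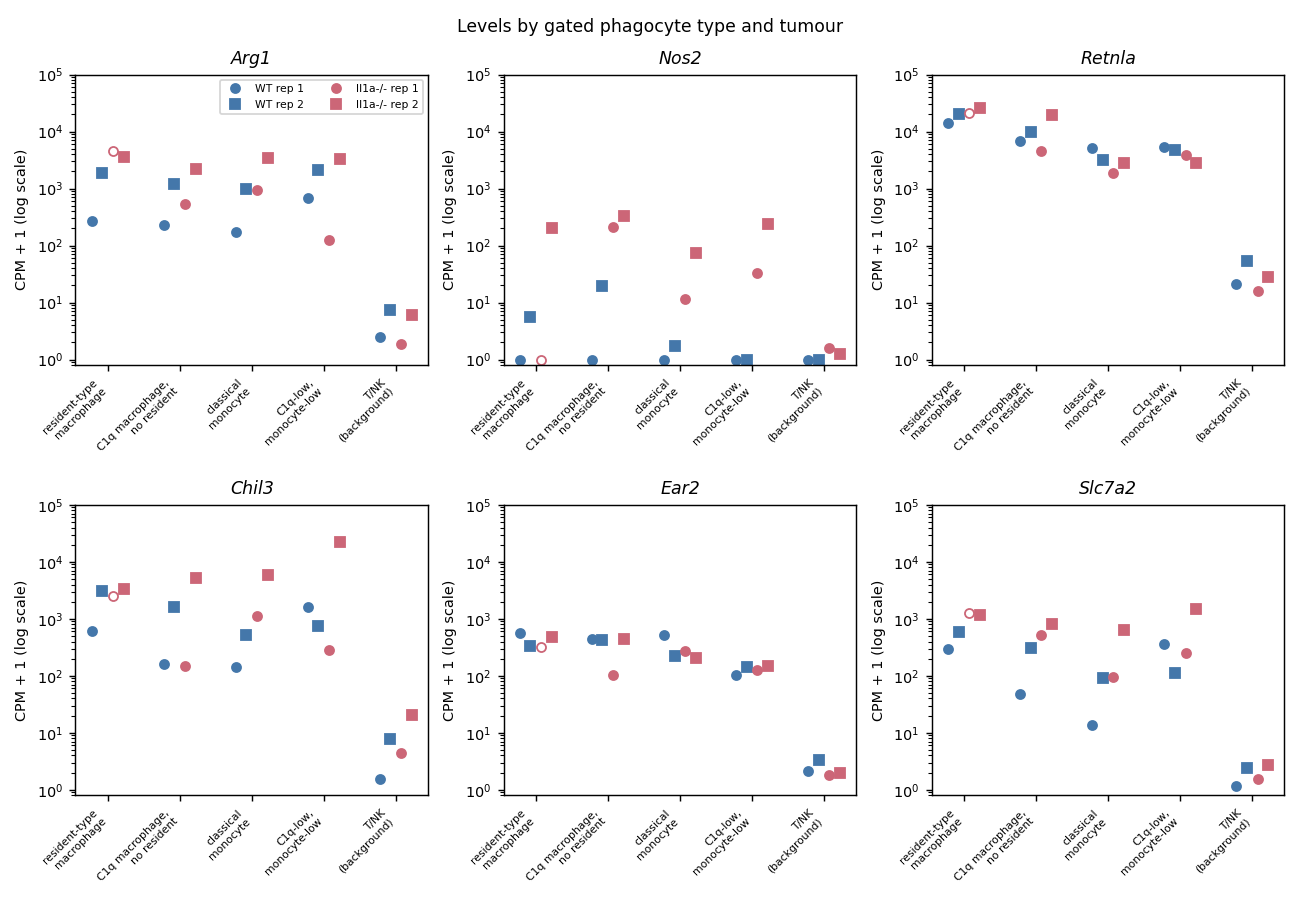
Points give CPM + 1 on a log axis for 6 genes in 4 gated phagocyte types and in T/NK-like cells, by tumour (blue WT, red Il1a-/-; circles replicate 1, squares replicate 2); the open circle rests on 3 cells. Retnla lies at 14069.7 CPM and above in resident-type cells and at 5219 CPM and below in classical monocyte-like cells with the gates plotted (with gates drawn after thinning, resident-type cells of WT tumours had 7226 and 11000 CPM, below C1q cells without resident markers); Arg1 shows overlapping ranges.

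The contrast of C1q-high cells with classical monocyte-like cells compares 2 types from the same tumours, so tumour was a term in the fit. Of 6737 genes tested, 16% were called. Of the 6 genes tested 3 were among them, all higher in C1q-high cells. Retnla was at 8598, 11831, 5742 and 21558 CPM in C1q-high cells, above the monocyte-like cells in 4 of 4 tumours (log2 difference 1.83, SE 0.24, edgeR adjusted p = 1.09e-04). Slc7a2 was at 104, 362, 578 and 918 CPM and higher in 4 of 4 tumours (1.74, SE 0.29, adjusted p = 7.12e-04). Nos2 was at 0, 16.1, 198 and 292 CPM and higher in 3 of 4, the other having no UMI in either type (2.47, SE 0.33, adjusted p = 1.43e-04).

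Arg1, Chil3 and Ear2 did not pass the test with these gates. Arg1 was at 238, 1339, 832 and 2601 CPM in C1q-high cells (log2 difference 0.11, SE 0.17, edgeR adjusted p = 0.737), with 2 tumours on each side. Chil3 was at 266, 1928, 317 and 4744 CPM (0.31, SE 0.40, adjusted p = 0.676). Ear2 was at 466, 412, 119 and 446 CPM (0.43, SE 0.25, adjusted p = 0.288). With gates drawn after thinning Arg1 was higher in C1q-high cells in 4 of 4 tumours (236 against 137, 1314 against 559, 971 against 719 and 2561 against 2180 CPM) and passed (log2 difference 0.77, edgeR adjusted p = 0.00361), where 21.4% of 5637 genes were called.

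**Figure D4:**
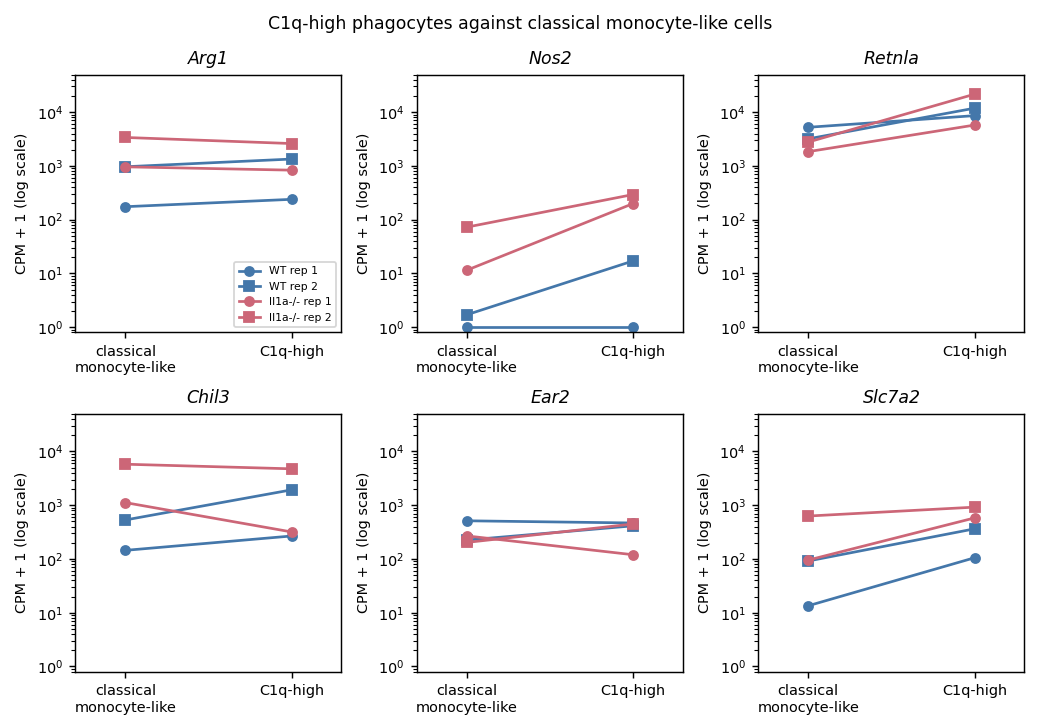
Lines join classical monocyte-like and C1q-high cells of the same tumour, as CPM + 1 on a log axis (blue WT, red Il1a-/-; circles replicate 1, squares replicate 2). Retnla and Slc7a2 lines go up in all 4 tumours; with the gates plotted, Arg1 and Chil3 lines go up in both WT tumours and down in both Il1a-/- tumours, while with gates drawn after thinning Arg1 goes up in all 4 and Chil3 in 3.

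Host genotype and type were also fitted together. The interaction, which asks whether the C1q-high against monocyte difference was itself different in Il1a-/- tumours, was called for 0.0391% of 7668 genes and for none of these 6 by edgeR. Chil3 came nearest (log2 interaction -2.41, SE 0.40, adjusted p = 0.0552), followed by Arg1 (-0.89, SE 0.20, unadjusted p = 5.84e-04, adjusted p = 0.448). An unadjusted p under 0.05 was also seen for Retnla and Slc7a2, and for 5.43% of all genes (416). With gates drawn after thinning the interaction was -0.79 for Arg1 (adjusted p = 0.588) and -1.15 for Chil3 (0.972). The remaining 4 had adjusted p from 0.809 for Slc7a2 to 1 for Ear2.

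An interferon gate (at least 2 UMIs of Cxcl9, Cxcl10, Rsad2 and Ifit1 to Ifit3) took 8.66%, 34.5%, 44.4% and 15.2% of phagocyte-like cells. Nos2, which interferon is known to induce in mouse macrophages, was at 0, 17.7, 140 and 301 CPM inside the gate and at 0, 2.94, 17.7 and 134 outside it. It was thus higher inside in each of the 3 tumours that had any. Retnla was at 6331, 5181, 698 and 7988 CPM inside and 7506, 10859.98, 6338 and 9115 outside, lower inside in all 4. Arg1 was at 33.1, 757, 324 and 2982 CPM inside and 253, 1612, 1378 and 3152 outside, also lower inside in all 4. These differences inside and outside the gate were not tested. The gate is a fixed UMI number, so it moves with depth, and it was not redrawn after thinning. Cells inside it were deeper, with medians of 6153, 5267, 2068 and 4316.5 UMIs, against 3608, 2877.5, 1590 and 3237.5 outside.

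The genes whose levels ran most alike were read from 15 sums (gated type by tumour, at least 20 cells each) over 8427 genes, with Pearson's r of log2(CPM + 10). The sums share tumours, so r is a description. Arg1 was most like Fam162a (r = 0.925), Pdk1 (0.852), Chil3 (0.838), Arrdc4 (0.832) and Mgarp (0.825). Chil3 was most like Arrdc4 (0.870), Stc2 (0.853), Arg1, Ankrd55 (0.829) and Ap3s1 (0.820). Slc7a2 was most like Ctsl (0.873), Zfp395, Bnip3 and Anxa4 (each 0.861) and Pgm2 (0.842). Nos2 was most like Sdc4 (0.876), Cstb (0.875), Egr1 (0.866), Chka (0.858) and Anxa4 (0.854).

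Retnla and Ear2 had other neighbours. Retnla was most like Tfrc (0.889), Selenop (0.880), Hexa (0.873), Hmbox1 (0.872) and Igfbp4 (0.860), and Ear2 most like D430042O09Rik (0.906), Parn (0.894), Pgpep1 (0.893), Ms4a4a (0.887) and Fut8 (0.882). Tfrc is the transferrin receptor and Selenop a secreted selenium carrier. Among the 7 genes, r was 0.753 for Slc7a2 with Chil3, 0.746 for Slc7a2 with Nos2, 0.643 for Slc7a2 with Arg1 and 0.604 for Retnla with Ear2. It was 0.143 for Arg1 with Retnla and -0.061 for Arg1 with Ear2.

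Wider pathway lists were read in phagocyte-like cells, where the median log2 difference of all genes was -0.02. Without a replicate block edgeR called none of the tested genes of the 5 lists. With it, edgeR called 1, 3, 3, 2 and 0 genes of the lists, in the order below, against 2.24% of all genes. The counts below are of tested genes with an unadjusted p under 0.05 without the block, against 13.9% of all genes. DESeq2 calls are given as well, against 2.1%. Of 23 arginine and polyamine genes 19 were tested, with a median of 0.07, and 8 had such a p; DESeq2 called 0. Gatm, which makes the creatine precursor from arginine, was at 1837, 2684, 1155 and 1507 CPM (log2 difference -0.73, SE 0.29, edgeR adjusted p = 0.317). Sat1, the polyamine acetyltransferase, was at 853, 549, 694 and 683 CPM. Slc3a2, the heavy chain of amino acid transporters, was at 134, 143, 235 and 197 CPM (0.66, SE 0.21, adjusted p = 0.221). The polyamine enzymes Odc1, Sms and Smox and the exporter Slc7a7 were picked after their values were seen: log2 differences were 0.92, 1.08, 1.35 and -1.03 (edgeR adjusted p = 0.134, 0.109, 0.067 and 0.135). Other polyamine enzymes of the list did not share that direction: Srm was at -0.65 (edgeR adjusted p = 0.424), Paox at -0.30 (0.861) and Amd1 at -0.034 (0.995).

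Of 28 further alternative activation genes and regulators 23 were tested, with a median of 0.43, and 8 had an unadjusted p under 0.05; DESeq2 called 3, all higher in Il1a-/-. The 3 of highest mean CPM were Fn1, the matrix protein fibronectin (2016, 1848, 1390.2 and 2902 CPM), Ccl24, an eosinophil-attracting chemokine (730.5, 2885, 995 and 2752), and Cebpb, a transcription factor known to drive Arg1 (1009.6, 971, 1485 and 1765; log2 difference 0.75, SE 0.23, edgeR adjusted p = 0.219). Of 20 classical activation and nitric oxide genes 19 were tested, with a median of 0.65 and 6 such p; DESeq2 called 1. Cybb, the phagocyte oxidase subunit, was at 999, 911, 1089 and 887 CPM, Il1b at 911, 628, 1055 and 456, and Gbp2, an interferon-induced GTPase, at 185, 616, 573 and 666.

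Of 16 tryptophan and kynurenine genes 7 were tested, with a median of 0.60 and 2 such p; DESeq2 called 1. With Ido1 absent, Tiparp, a target of the aryl hydrocarbon receptor, was at 161, 105, 301 and 382 CPM (log2 difference 1.42, SE 0.28, edgeR adjusted p = 0.0777), and the receptor gene Ahr at 115, 65.04, 57.3 and 67.8. Wars, the tryptophan tRNA synthetase, was at 29.1, 44.2, 37.3 and 63.2 CPM. Of 10 type 2 cytokine and receptor genes 5 were tested, with a median of 0.75 and 3 such p; DESeq2 called 0. Csf2rb, the shared receptor chain for interleukin 5 and GM-CSF, was at 152, 159, 212 and 246 CPM, Il10ra at 122, 116, 152 and 88.3, and Il1rl1, the interleukin 33 receptor, at 8.30, 2.14, 11.5 and 6.27.

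Ido1 aside, the values in the other named classes described here were lower than in phagocytes. In 2 unnamed clusters some were not low: cluster 15 had Nos2 at 265 CPM in Il1a-/- replicate 2 (33 cells), above the phagocytes of that tumour, and cluster 17 had Retnla at 999.7 CPM over the 4 tumours, below the phagocytes but above each of the other named classes. In T/NK-like cells Retnla was at 20.1, 52.4, 14.9 and 27.1 CPM and Chil3 at 0.574, 6.84, 3.37 and 19.5, and conventional dendritic-like cells had Retnla at 20.9, 66.2, 76.6 and 20.5. Fibroblast-like cells had Slc7a2 at 8.04, 10.2, 6.87 and 26.2 CPM, above the 0.143 to 1.75 of T/NK-like cells. Tumour epithelial-like cells had Arg1 at 17.3, 47.7, 51.5 and 0 CPM, the last from 3 cells. Ido1 was seen in 2 UMIs of Il1a-/- replicate 1, in tumour epithelial-like cells. It was also seen in 3 UMIs of Il1a-/- replicate 2, in plasmacytoid dendritic-like cells. Without a replicate block edgeR called none of the genes tested between hosts in the following classes, and none had an unadjusted p under 0.05. It called 0.104% of 4795 genes in conventional dendritic-like cells, where 471 had an unadjusted p under 0.05. In plasmacytoid dendritic-like cells it called 1.96% of 5869 (891 unadjusted). In fibroblast-like cells it called 0% of 9691 (470 unadjusted) and in T/NK-like cells 5.17% of 10925 (2729 unadjusted). Of the 7 genes only Retnla was tested in either dendritic class. With the block, Retnla and Chil3 were called in T/NK-like cells, as were 18.6% of all genes.

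Chil3 and Ear2 have close relatives that could take or give reads. Of the 60-base words in the last 400 bases of each transcript, 11.5% of Chil3 words also occur in another gene, mainly Chil4, and 19.4% of Ear2 words, mainly in Ear1; the other 5 share 0%. In phagocyte-like cells Chil4 had 0, 5, 0 and 61 UMIs against 510, 5053, 262 and 13704 of Chil3. Ear1 had 178, 254, 7 and 92 UMIs against 906, 1234, 70 and 481 of Ear2. The Ear2 values are therefore uncertain by the share that counting could have moved between these genes.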

How the data were processed

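The deposited values are raw UMI counts per gene and barcode of 4 tumours, made by the authors with Cell Ranger 3.1.0 per the submitters' processing notes. The matrices hold all barcodes and a combined human and mouse (mm10) reference, per the file headers; mouse features were used. Barcodes with at least 500 UMIs, 250 genes and at most 20% mitochondrial UMIs were kept, without a test against empty droplets. Scrublet (scanpy 1.11.5) scores were used to remove 0.8% of barcodes per 1000 cells as doublets (83 to 128 per library). Cells were clustered on 2000 variable genes, 30 components and 15 neighbours by the Leiden method at resolution 1 (leidenalg 0.10.2). No cell annotation was used, so class names rest on markers (at least 3 detected at 50 CPM in 10% of cells, and a class score 1.5 times the next). Of 24 clusters 4 stayed unnamed, with 1162 of 14127 cells. The naming rule and gate limits were set after marker values were seen. The monocyte gate also counts 1 marker that is not reported here.

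Counts were summed per tumour and type. Types with at least 20 cells in every tumour were tested with edgeR 4.0.16 (filterByExpr, TMM, quasi-likelihood, Benjamini-Hochberg over all genes passing the filter, threshold 0.05), and DESeq2 1.42.0 was the alternative. The edgeR fit of host genotype in phagocyte-like cells was also run on simulated counts. Cell shares carry exact Clopper-Pearson and CPM exact Poisson 95% intervals, which cover counting error only. The genes named are the 7 members, the genes called in each list and its 3 tested genes of highest mean CPM, and the 5 genes most like each member; a few others (Odc1, Sms, Smox, Slc7a7, Srm, Paox, Amd1, Arg2, Retnlg and the relatives Chil4 and Ear1) were named outside this rule after their values were seen. The members and lists were chosen with earlier results of these data known. Other settings were another filter, scaling, cell filter, gate and tool, a replicate block and each tumour left out.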

Additional observations from a re-analysis of the deposited data

Results flagged for a closer look

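With the gates as first drawn, in 2 genes the WT and Il1a-/- tumours moved in opposite directions from classical monocyte-like to C1q-high cells. Arg1 was higher in C1q-high cells in both WT tumours (238 against 173 CPM and 1339 against 963) and lower in both Il1a-/- tumours (832 against 959 and 2601 against 3377). The edgeR interaction was -0.89 on the log2 scale (adjusted p = 0.448). Chil3 did the same (266 against 143 and 1928 against 529.8 CPM in WT, 317 against 1116 and 4744 against 5778 in Il1a-/-), with an interaction of -2.41 (edgeR adjusted p = 0.0552). The opposite directions did not hold with other gates. Drawn after thinning, Arg1 was higher in C1q-high cells in both Il1a-/- tumours (971 against 719 and 2561 against 2180 CPM), and Chil3 in Il1a-/- replicate 2 (6183 against 1721). With stricter gates Arg1 was higher in Il1a-/- replicate 1 (807 against 605) and Chil3 in Il1a-/- replicate 2 (4992 against 4654).

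Signal also appeared in clusters that no comparison used, above the highest level in T/NK-like cells of any tumour. Unnamed cluster 15 (182 cells, led by Timp1 and Tagln) had Slc7a2 at 125 CPM (exact Poisson interval 107 to 144), Arg1 at 52.8 CPM and Nos2 at 44.4 CPM over the 4 tumours. Of its 63 Nos2 UMIs, in 7 cells, 61 came from Il1a-/- replicate 2. Unnamed cluster 17 (111 cells, median 675 UMIs, led by Retnlg and with Ccr3 among its leading genes) had Retnla at 999.7 CPM (interval 823 to 1203) and Ear2 at 44.6 CPM, the latter from 5 UMIs. Low-UMI barcodes of these libraries held Retnla at 1349 to 6681 CPM; its part in the cluster's level was not tested.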

How the results depend on the processing

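In phagocyte-like cells the number of genes called between hosts was 18; it was 558 with no filter on low counts, 111 with DESeq2, 10 with library totals in place of TMM, 11 with cells of at least 1000 UMIs, 54 with the marker gate alone, 7 without the cluster of low UMI counts (added after seeing the data), and 0 to 380 with 1 tumour left out. Leaving out a tumour leaves 1 sample in an arm, which is then assumed to vary like the other group. For Arg1 the log2 difference of 1.504 kept its sign in all 12 alternatives. It was 2.19 without Il1a-/- replicate 1 and ranged from 0.12 to 3.21 with 1 tumour left out. With no filter Arg1 passed (1.48, edgeR adjusted p = 2.09e-06), as did Nos2 (2.53e-38), Chil3 (1.45e-17) and Slc7a2 (3.89e-09). With the filter the same counts gave edgeR adjusted p of 0.440, 0.0590, 0.342 and 0.245. The smaller values thus come from the setting of the fit and not from closer replicates, and are not stronger evidence. Nos2, Slc7a2 and Ear2 also kept their signs in all 12; with 1 tumour left out Nos2 ranged from 3.70 to 10.47, Slc7a2 from 0.69 to 2.91 and Ear2 from -1.05 to -0.43. With 1 tumour left out Retnla ranged from -1.25 to 0.30, positive without Il1a-/- replicate 1, and Chil3 from -0.19 to 4.13, negative without Il1a-/- replicate 2. The cause of these changes was not tested.

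The replicate numbers were not taken to pair the tumours, since the labels do not say which tumours form a pair. Replicate 1 minus replicate 2 correlated over genes at r = 0.0375 between genotypes. A correlation over all genes cannot settle whether the numbers are the pairs. With a replicate block 201 genes were called (2.24%) in phagocyte-like cells, among them Arg1 (1.63, adjusted p = 0.00712), Nos2 (4.73, adjusted p = 0.00236), Chil3 (2.06, adjusted p = 0.00766) and Slc7a2 (1.81, adjusted p = 0.00405). The block gave 162 genes in C1q cells without resident markers, 216 in classical monocyte-like, 114 in conventional dendritic-like, 333 in plasmacytoid dendritic-like and 2029 in T/NK-like cells, against 0, 6, 5, 115 and 565 without it. In T/NK-like cells it called Retnla (-0.73, adjusted p = 0.0119) and Chil3 (1.69, adjusted p = 0.00195). In C1q cells without resident markers it called Nos2 (4.87, adjusted p = 5.90e-09) and Slc7a2 (2.31, adjusted p = 8.00e-05), and in classical monocyte-like cells Arg1 (2.17, adjusted p = 3.02e-06), Chil3 (3.29, adjusted p = 5.27e-09) and Slc7a2 (2.90, adjusted p = 4.31e-08). In the unnamed C1q-low cells the block turned Arg1 to -0.44.

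In gated types, leaving out 1 tumour gave 49 to 295 called genes in C1q cells without resident markers, 0 to 21 in classical monocyte-like and 3 to 64 in the unnamed C1q-low cells. In classical monocyte-like cells a stricter gate gave 3 genes and gating after thinning 21. With 1 tumour left out, C1q cells without resident markers had Arg1 from -0.63 to 2.61, Retnla from -1.07 to 1.28 and Chil3 from -2.82 to 4.11, each negative in the absence of Il1a-/- replicate 2, and Ear2 from -2.25 to 0.033, positive in the absence of Il1a-/- replicate 1. Classical monocyte-like cells had Ear2 from -1.10 to 0.10, positive in the absence of WT replicate 1. The unnamed C1q-low cells had Arg1 from -3.60 to 1.56 (also negative, -0.19, in the absence of WT replicate 1), Chil3 from -2.11 to 4.47 and Ear2 from -0.021 to 0.38. Ear2 was 0.19 in classical monocyte-like cells gated after thinning, and in the unnamed cells -0.96 with the stricter gate and -1.67 after thinning.

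For C1q-high against classical monocyte-like cells, DESeq2 called 657 genes and leaving out 1 tumour gave 602 to 1027, against 1078. Retnla, Nos2 and Slc7a2 passed in every alternative that gave a value, from 1.45 to 2.91, 2.28 to 2.86 and 1.52 to 2.36. With 1 tumour left out Arg1 ranged from -0.057 to 0.32, negative (-0.011 and -0.057) in the absence of either WT tumour, and Chil3 from -0.32 to 0.85, negative in the absence of WT replicate 2. The stricter gate and, added after seeing the data, gates drawn after thinning each left 0 genes with an interaction.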

Other observations

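Relatives of the 7 genes were found in other cells. Neutrophil-like cells (33, 64, 6 and 9 cells in WT replicates 1 and 2 and Il1a-/- replicates 1 and 2) had Arg2, the mitochondrial arginase, at 471, 278, 0 and 168 CPM, from 21, 25, 0 and 2 UMIs, and Arg1 from 3 UMIs in WT replicate 2 alone. In phagocyte-like cells Arg2 was at 6.23, 4.55, 8.60 and 10.3 CPM. Retnlg, the resistin-like gamma gene that marks mouse neutrophils, was at 6771, 1993, 880.1 and 4038 CPM in the neutrophil-like cells, against 30.1, 4.01, 0 and 1.71 in the phagocytes.

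Chil4, the close relative of Chil3, was seen mostly in tumour epithelial-like cells of WT replicate 2. Those cells had 593 Chil4 UMIs (130 CPM) and 29 Chil3 UMIs (6.34 CPM), while WT replicate 1 had 77 and 7 UMIs. The Il1a-/- tumours had only 29 and 3 tumour epithelial-like cells, so no comparison of hosts was made there.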
